A study of Mus musculus with 32 samples.

Results

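The insulin-like growth factor (IGF) family was followed in mouse gastrocnemius (GAS) muscle, the large calf muscle, after its nerve supply was cut. The 10 genes were taken by symbol from the deposited table of 33397 genes: the ligands Igf1 and Igf2, the receptors Igf1r and Igf2r, the binding proteins Igfbp3, Igfbp4, Igfbp5, Igfbp6 and Igfbp7, and the mRNA-binding protein Igf2bp2. All 10 were found, and all 10 passed the filter on low values. The samples were GAS muscles of C57BL/6 mice with 4 samples at each of 0, 1, 3, 5, 7, 14, 21 and 28 d, 32 in all. The labels list sciatic nerve transection for all groups, 0 d included, and give neither age, sex nor any allele, while the study's text sets its model against a sham group that kept the nerve and names the mice as male C57BL/6J. The samples of 0 d were used as the reference for the 7 later days, so those 7 comparisons share their controls. The study describes its samples as biologically independent, and the columns of the table name the day but not the animal. Replicate numbers below only name columns.

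IGF-1 and IGF-2 are secreted hormones that signal mainly through the receptor tyrosine kinase encoded by Igf1r, and in skeletal muscle this pathway is known for promoting fibre growth and myoblast differentiation. Igf2r encodes the cation-independent mannose 6-phosphate receptor, which takes IGF-2 up for degradation and also sorts enzymes to lysosomes. The IGF binding proteins hold the ligands in the circulation and in the matrix and can limit or prolong their action. Igfbp7 binds IGFs only weakly, and Igf2bp2 acts inside the cell on mRNAs, among them that of Igf2.

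Levels are FPKM, fragments per exon length and per library total, as the authors deposited them. Recovered library totals were 14199882 to 17561602 fragments (median 16663167.5). The 6 skeletal muscle markers summed to 31460 to 35370 FPKM at 0 d, 20400 to 23290 at 3 d and 18310 to 21360 at 28 d, with the later groups wholly below the first. Not all 6 fell. Des lay above all 0 d samples from 3 d on (996 to 1104 FPKM at 3 d), and Myh1 did at 21 and 28 d, so that at 28 d 2 markers lay above and 4 below. The 6 photoreceptor markers, looked up because the labels' extraction protocol speaks of retinas, summed to at most 0.285 FPKM. Mitochondrial genes took 14.5% to 18.2% of fragments at 0 d and 6.70% to 11.3% at 7 d. The median change of 11943 genes with a mean of at least 1 FPKM was 0.12 to 0.32 (log2) against 0 d as deposited, and median-ratio scaling between samples shifted it to near 0 (shifts of 0.14 at 1 d to 0.31 at 14 d). Replicate 1 of 3 d stood apart, with a median r of 0.966 with its own group across genes, against a median of 0.987 over all samples. In whole muscle, fewer cells of a type and less RNA per cell cannot be told apart.

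A gene was called changed at a Benjamini-Hochberg adjusted p under 0.05 in limma and at least 1.5-fold, on log2(FPKM + 1). The changes sorted the family into separate courses. Igfbp5 fell first and then rose, and Igf2r rose from 3 d on and remained high. Igf1 and Igfbp4 were called higher from 3 to 14 d, Igf2bp2 at 3 and 5 d and Igfbp7 at 5 and 7 d. Igfbp6 was called lower at 3 d. Igfbp3 was called at 3 d, at the threshold, and Igf1r and Igf2 were not called at any day. The counts of members by day are set beside the percent of all 22071 genes tested that was called in that direction. At 1 d, 0 members were called higher and 1 lower, against 6.34% and 2.49% of all genes. At 3 d, 5 were higher and 2 lower, against 13.2% and 6.03%. At 5 d, 6 were higher and 0 lower, against 14.9% and 3.86%. At 7 d, 5 were higher and 0 lower, against 15.4% and 4.1%. At 14 d, 4 were higher and 0 lower, against 14.6% and 3.83%. At 21 d, 2 were higher and 0 lower, against 11.8% and 3.93%. At 28 d, 2 were higher and 0 lower, against 14.2% and 4.1%. From 3 to 14 d the members' share called higher lay above that background, and at 21 and 28 d it lay near it. The members were chosen with earlier results of these data known, so this is a description. Of the 22071 genes, 11943 had a mean of at least 1 FPKM. For the rest log2(FPKM + 1) understates changes, so the background is not one of genes at most members' levels. A filter at a mean of 1 FPKM still called 1771 to 3965 genes per day in either direction, against 1950 to 4308 without it. Without replicate 4 of 7 d the members called higher at 7 d numbered 2, and without replicate 3 of 28 d those at 28 d numbered 5. The median change of the members was 0.16 on day 1 (0.03 for all genes tested), 0.56 on day 3 (0.06), 0.70 on day 5 (0.13) and 0.44 on day 28 (0.14). For the 11943 genes with a mean of at least 1 FPKM the medians were 0.12, 0.20, 0.31 and 0.30 on these days. After median-ratio scaling the members' median was 0.0096 on day 1, 0.39 on day 3, 0.43 on day 5 and 0.13 on day 28, with medians of -0.0093 to 0.018 for all genes tested over the 7 days. After that scaling 0 members were called higher and 2 lower at 1 d, against 4.14% and 4.68% of all genes. At 3 d, 3 were higher and 2 lower, against 9.01% and 9.16%. At 5 d, 3 were higher and 2 lower, against 6.7% and 7.69%. At 7 d, 2 were higher and 2 lower, against 7.15% and 7.92%. At 14 d, 2 were higher and 1 lower, against 6.58% and 7.54%. At 21 d, 2 were higher and 2 lower, against 6.44% and 7.16%. At 28 d, 2 were higher and 1 lower, against 6.58% and 8.11%. That scaling also moved the balance over all genes, from 1400 higher and 550 lower to 913 and 1033 at 1 d, and from 3296 and 852 to 1479 and 1698 at 5 d.

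**Figure D1:**
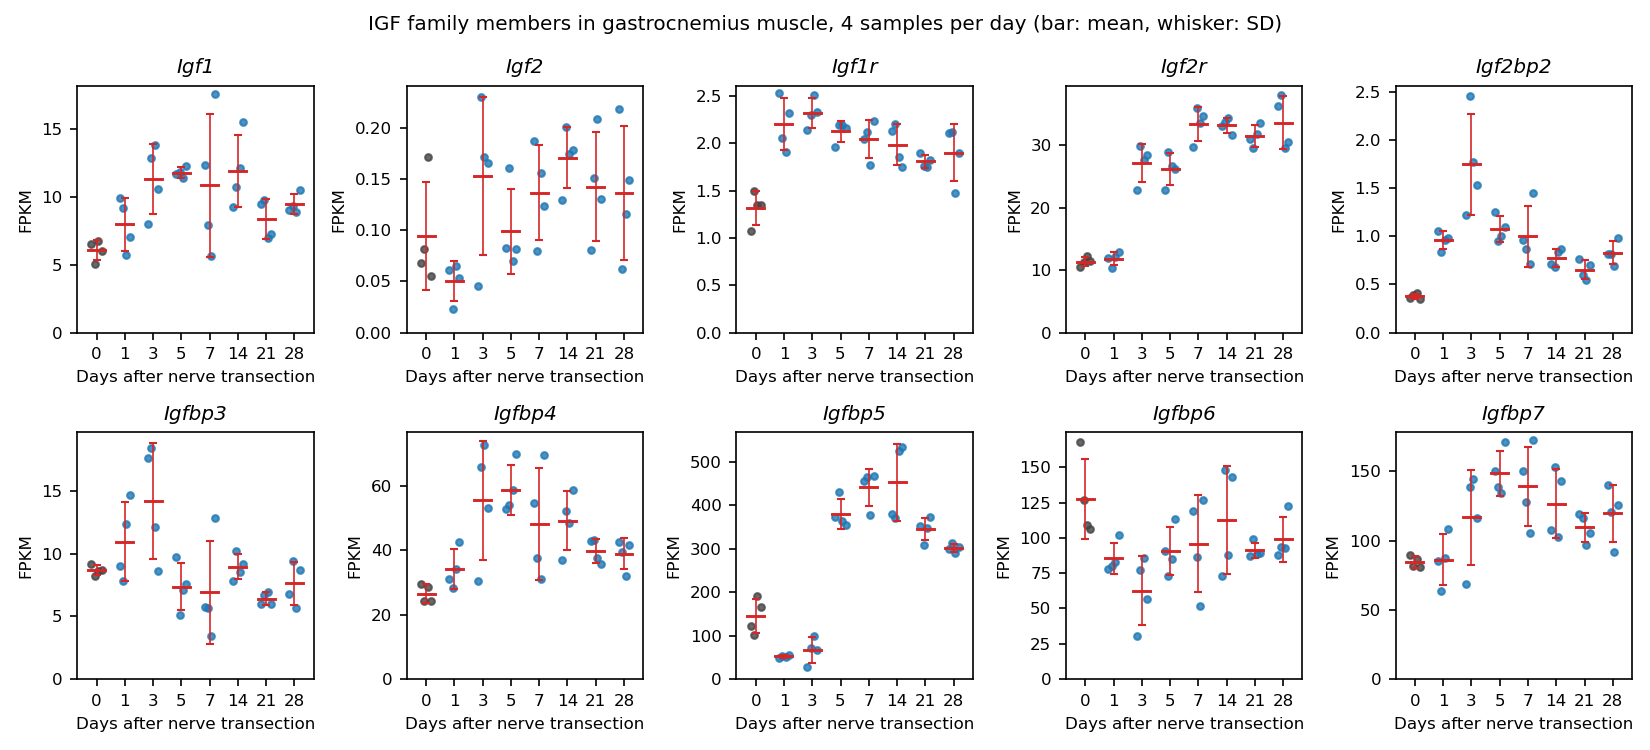
FPKM of the 10 members (y axes) in each of the 32 samples by day after nerve transection (x axes, not to scale in time). Points are samples, with 0 d in grey, red bars are means of 4 samples and whiskers are SD. Igfbp5 drops below its 0 d samples at 1 and 3 d and lies above them from 5 d, and the Igf2r samples from 3 d on all lie above those of 0 and 1 d.

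Of the ligands, Igf1 had the higher FPKM as deposited in every sample. Igf1 (ENSMUSG00000020053, chr10:87858265-87937042 on the plus strand, GRCm38, 9904 exon bases) read 6.53, 5.07, 6.73 and 6.00 FPKM at 0 d. It read 8.02, 12.8, 13.8 and 10.6 FPKM at 3 d and 11.6, 11.8, 11.3 and 12.3 FPKM at 5 d. All 4 samples of both days lay above all 4 of 0 d, and the samples of 5 d were close together. Mean levels were 6.08 ± 0.742 FPKM at 0 d (SD, n = 4), 11.3 ± 2.58 at 3 d, 11.8 ± 0.389 at 5 d and 11.9 ± 2.64 at 14 d. The log2 changes were 0.78 ± 0.21 (SE) at 3 d (limma adjusted p = 0.00334), 0.86 ± 0.21 at 5 d (adjusted p = 0.00138) and 0.85 ± 0.21 at 14 d (adjusted p = 0.00148). At 7 d the samples spread widely, at 12.3, 7.90, 5.60 and 17.5 FPKM, and overlapped those of 0 d. The rise of 0.64 ± 0.21 there (adjusted p = 0.0143) was 0.39 without replicate 4 of 7 d, 0.54 without replicate 1 of 7 d and 0.57 without replicate 2 of 0 d, none of them called. At 1, 21 and 28 d the changes were 0.32, 0.39 and 0.56, below the call. At 28 d the change reached 0.59 to 0.61 and was called without replicate 3 of 28 d or without replicate 1 or 3 of 0 d. After median-ratio scaling no Igf1 change was called, with 0.58 at 3 d (adjusted p = 0.0137), 0.51 at 5 d and 0.50 at 14 d, all in the same direction. Macrophage markers (5 of 5) summed to 45.5 to 67.0 FPKM at 0 d, 184 to 366 at 3 d and 219 to 277 at 5 d, and at 7 d their sum, like Igf1, was lowest in replicate 3 (153 FPKM) and highest in replicate 4 (324 FPKM). At 3 d Cd68 and Mrc1 lay above all 0 d samples and Adgre1, Csf1r and C1qa overlapped them, while at 5 and 7 d all 5 markers lay above. Their part in the result was not tested.

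Igf2 (ENSMUSG00000048583, chr7:142650766-142666816 on the minus strand, 5723 exon bases) lay between 0.0227 and 0.230 FPKM in the 32 samples, which corresponds to 2 to 22 fragments. Igf2 is an imprinted growth factor used heavily in the fetus and at low levels in adult muscle. Its means ran from 0.0506 ± 0.0192 FPKM at 1 d to 0.171 ± 0.0301 at 14 d, and the samples of all 7 later days overlapped those of 0 d. No change against 0 d was called, and at levels this low log2(FPKM + 1) cannot reach 1.5-fold. With a pseudocount of 0.1 and with limma-voom on recovered fragments no change against 0 d was called either, with 0.51 (adjusted p = 0.0974) and 0.93 (adjusted p = 0.0808) at 14 d. From 1 d to 3 d the mean FPKM of Igf2 rose 3.03-fold between overlapping groups (limma adjusted p = 0.0423, 0.13 ± 0.05 on log2(FPKM + 1)), a step called with a pseudocount of 0.1 (0.70, adjusted p = 0.0332) and with limma-voom (1.4, adjusted p = 0.0290). Of its exon bases, 3596 are shared on the same strand with the gene model Gm49394, which has no row in the table, and how shared fragments were counted is not given in the sources used here, so the level of Igf2 is uncertain. The ratio of Igf1 to Igf2 FPKM had a median of 78.4 over the 32 samples and ran from 33.1 to 404.

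The receptors differed in course. Igf2r (ENSMUSG00000023830, chr17:12682406-12769664 on the minus strand, 9308 exon bases) read 10.5, 11.4, 12.2 and 11.4 FPKM at 0 d. At 1 d it read 11.9, 10.4, 12.1 and 12.8 FPKM. These groups overlapped, and the change was 0.05 ± 0.09 (adjusted p = 0.760). At 3 d the samples read 22.8, 29.9, 27.6 and 28.4 FPKM. At 5 d they read 22.9, 28.9, 26.7 and 26.2 FPKM. Every sample of 3 and 5 d was above every sample of 0 and 1 d. At 7 d Igf2r read 29.7, 36.0, 33.5 and 34.6 FPKM. At 14 d it read 33.1, 33.8, 34.3 and 31.6 FPKM. The 14 d samples were the most alike in relation to their level. At 21 d the values were 31.1, 29.5, 31.8 and 33.6 FPKM. At 28 d they were 36.3, 38.1, 29.5 and 30.5 FPKM. From 3 d on no sample fell within the range of 0 d.

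Against 0 d the mean FPKM of Igf2r was 2.39-fold higher at 3 d, 2.30-fold at 5 d and between 2.77-fold and 2.96-fold from 7 d to 28 d. The log2 changes were 1.18 ± 0.09 at 3 d and 1.48 ± 0.09 at 28 d, with limma adjusted p = 2.02e-12 and 2.51e-14. The step from 1 d to 3 d was 1.13 ± 0.09 (adjusted p = 1.50e-11), in a comparison in which 6.63% of all genes were called higher and 3.93% lower, and 2 members, Igf2r and Igfbp4, were higher. A smaller step of 0.34 from 5 d to 7 d had adjusted p = 0.0276 but did not reach 1.5-fold. After that, neighbouring days overlapped. After median-ratio scaling Igf2r was called higher at the same 6 days, with changes of 0.77 at 5 d to 1.12 at 28 d. On FPKM as deposited, the calls at these 6 days held with each sample left out in turn. Macrophage markers moved with the rise at 3 d, where the summed FPKM of 5 of 5 markers was 184 to 366 against 45.5 to 67.0 at 0 d, with Cd68 and Mrc1 above all 0 d samples and Adgre1, Csf1r and C1qa overlapping them. Satellite cell and myoblast markers (5 genes) summed to 61.3 to 95.6 FPKM against 13.6 to 17.9, most of it Myod1 (49.8 to 80.2 FPKM against 6.03 to 9.54), while Cdh15 was also above and Pax7, Myf5 and Vcam1 overlapped their 0 d samples. At 28 d the macrophage sum was 142 to 161 FPKM and the satellite cell and myoblast sum 93.1 to 116 FPKM, of which Myod1 was 84.5 to 106. Their part in the result was not tested. Igf2r was 0.30 higher at 28 d than at 3 d (limma adjusted p = 0.00660, under 1.5-fold), between overlapping groups, and 0.15 higher after median-ratio scaling (adjusted p = 0.141).

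The sequence before the start of Igf2r is shown because Igf2r kept its calls under each scaling tried. It is the RefSeq window of 250 bases at chr17:12769707-12769956 (GRCm38.p6, minus strand), 5′ to 3′, with each match to CANNTG, the letters of the E-box on either strand, in capitals.
Igf2r: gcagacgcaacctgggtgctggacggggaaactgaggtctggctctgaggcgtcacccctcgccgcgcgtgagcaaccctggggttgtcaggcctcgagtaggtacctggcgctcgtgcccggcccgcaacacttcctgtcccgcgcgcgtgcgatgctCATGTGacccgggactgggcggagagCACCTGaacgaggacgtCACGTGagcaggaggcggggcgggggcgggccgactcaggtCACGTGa
The window held 4 such matches, and 2 of them were CACGTG. Of 32851 windows of that length over all genes, 66.2% held at least 1 CANNTG and 3.83% held at least 4. CACGTG, which is itself a CANNTG match, was in 6.02% of them. Both CACGTG places here read as GTCACGTGA on the printed strand, a longer word chosen after the sequence was read and searched on both strands, which was in 0.621% of all windows. A match is a description of the letters.

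Igf1r (ENSMUSG00000005533, chr7:67952827-68233668 on the plus strand, 16791 exon bases) was lower than Igf2r at all times. It read 1.07, 1.5, 1.35 and 1.35 FPKM at 0 d, 2.53, 2.05, 1.91 and 2.32 at 1 d and 2.14, 2.30, 2.51 and 2.33 at 3 d. All samples of 1 and 3 d lay above all of 0 d, and the same held at 5, 7, 14 and 21 d, while at 28 d 1 sample, at 1.48 FPKM, lay within the 0 d range. The log2 change was 0.47 ± 0.08 at 1 d (limma adjusted p = 1.94e-05), 0.52 ± 0.08 at 3 d (adjusted p = 1.78e-06) and 0.32 ± 0.08 at 28 d (adjusted p = 9.08e-04). None of the 7 changes reached 1.5-fold on log2(FPKM + 1), a scale that understates changes near 1 FPKM, while the ratio of mean FPKM was 1.67 at 1 d, 1.76 at 3 d and 1.45 at 28 d. With a pseudocount of 0.1 the changes were called at 1, 3, 5 and 7 d (0.60 to 0.78). After median-ratio scaling they were 0.37 at 1 d (adjusted p = 2.37e-04), 0.39 at 3 d and 0.09 at 28 d (adjusted p = 0.359). The ratio of Igf2r to Igf1r FPKM within a sample, which scaling by a single factor per sample cannot change, was 8.72 ± 0.922 at 0 d (SD, n = 4). It was 5.41 ± 0.704 at 1 d, 11.7 ± 1.07 at 3 d and 17.8 ± 1.64 at 28 d. The ranges of the ratio at 0, 1, 3 and 28 d did not overlap.

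**Figure D2:**
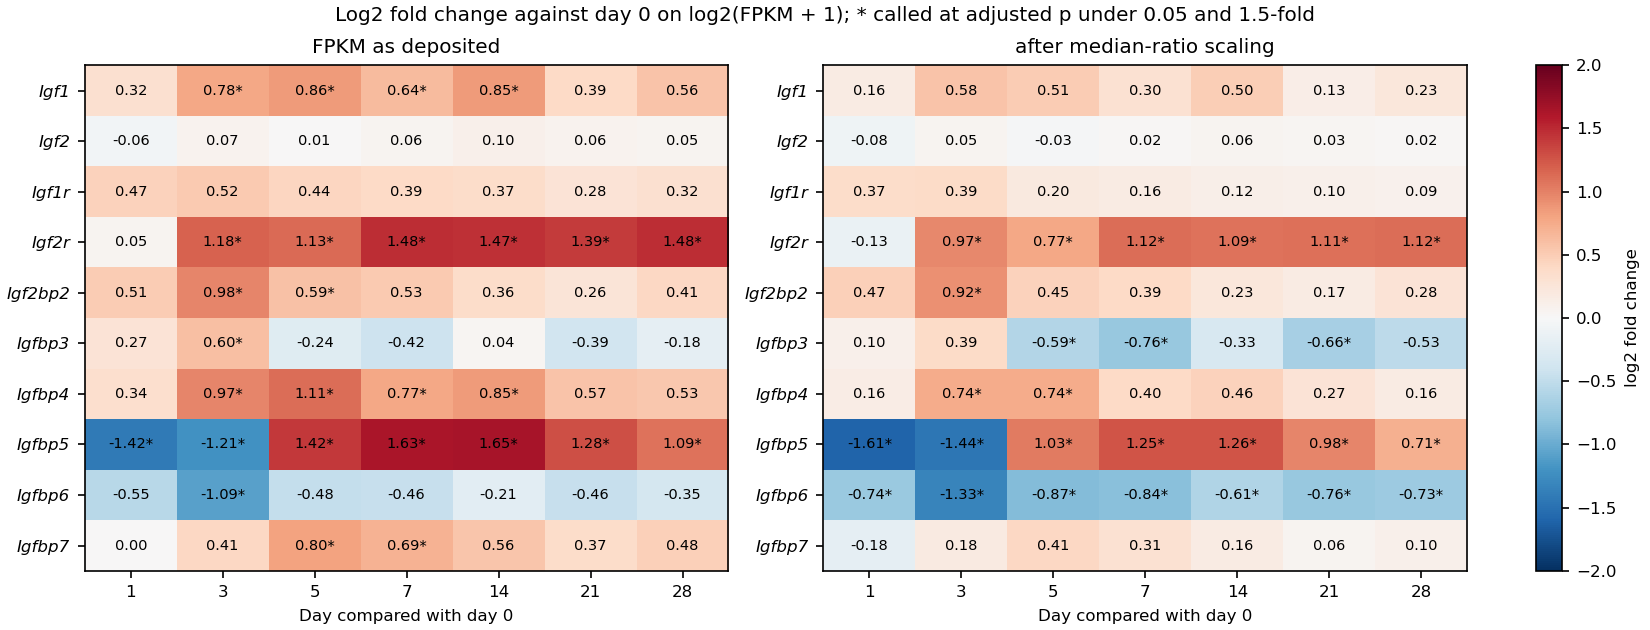
Log2 fold change of each member (rows) at each day against 0 d (columns), from FPKM as deposited (left) and after median-ratio scaling between samples (right). Colour and number give the change on log2(FPKM + 1), and an asterisk marks an adjusted p under 0.05 with at least 1.5-fold. Igf2r and Igfbp5 hold their asterisks in both panels, those of Igf1 and Igfbp7 are in the left panel, and Igfbp6 has asterisks at all 7 days in the right panel.

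Of the 5 binding proteins among the members, Igfbp5 moved furthest. It encodes a secreted protein that binds IGFs and matrix and is made by muscle cells and fibroblasts. Igfbp5 (ENSMUSG00000026185, chr1:72857932-72874884 on the minus strand, 6006 exon bases) read 123, 103, 191 and 165 FPKM at 0 d. At 1 d it read 48.9, 53.3, 50.1 and 56.4 FPKM. At 3 d it read 27.5, 72.3, 100.2 and 66.8 FPKM. Every sample of 1 and 3 d was below every sample of 0 d, with replicate 1 of 3 d the lowest of all 32. At 5 d the values were 373, 432, 363 and 354 FPKM. At 7 d they were 456, 465, 377 and 468 FPKM. At 14 d they were 381, 371, 525 and 535 FPKM. All of these lay above the highest sample of 0 d, and the 14 d samples formed a lower and a higher pair. Igfbp5 read 354, 309.8, 347 and 372 FPKM at 21 d. It read 299, 313, 289.5 and 304 FPKM at 28 d, the day with the closest samples of those after 3 d.

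Igfbp5 fell by 1.42 on the log2 scale at 1 d (SE 0.23, limma adjusted p = 1.22e-05), to 0.359 of its mean FPKM of 0 d. At 3 d it fell by 1.21 (adjusted p = 5.95e-05). It then rose by 2.63 ± 0.23 between 3 d and 5 d (adjusted p = 1.20e-09), a 5.71-fold step in mean FPKM and the 1 member called higher in a comparison that called 3.72% of all genes higher. Against 0 d the change was 1.42 ± 0.23 at 5 d (adjusted p = 6.25e-06), 1.63 and 1.65 at 7 and 14 d, 1.28 at 21 d, and 1.09 ± 0.23 at 28 d (adjusted p = 2.10e-04). Mean FPKM was highest at 14 d, 3.12-fold that of 0 d, and 2.07-fold at 28 d. Neighbouring days from 5 d on overlapped, and 0 members were called in limma between 5 and 7 d, 7 and 14 d, 14 and 21 d or 21 and 28 d, where 0.657%, 0.634%, 0.453% and 0.199% of all genes were. Between 3 d and 28 d Igfbp5 rose by 2.30 ± 0.23 (adjusted p = 3.10e-09), where 7.46% of all genes were called higher. All of these calls held after median-ratio scaling, with -1.61 at 1 d, 1.26 at 14 d and 0.71 at 28 d, and, on FPKM as deposited, with each sample left out in turn. Without replicate 1 of 3 d, the sample that stood apart, Igfbp5 remained called lower at 3 d. Summed fibroblast markers (5 of 5) were 356 to 429 FPKM at 1 d against 377 to 508 at 0 d, ranges that overlap, 252 to 403 at 3 d and 409 to 463 at 5 d. Lum and Dpt lay below all 0 d samples at 1 d. At 5 d Lum and Pi16 lay above and Dpt below, while the other genes overlapped. At 5 d the macrophage sum was 219 to 277 FPKM against 45.5 to 67.0 at 0 d. The satellite cell and myoblast sum was 70.6 to 92.45 against 13.6 to 17.9, and 5 Schwann cell markers summed to 8.06 to 35.8 against 76.3 to 169. Their part in the result was not tested.

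The window before the start of Igfbp5, shown because this gene had the largest change against 0 d of the 10 on log2(FPKM + 1), though not in the ratio of mean FPKM, where Igf2bp2 led, is chr1:72874885-72875115 (RefSeq, GRCm38.p6, minus strand), trimmed by 19 bases to end where the GENCODE gene begins, and is marked in the same way.
Igfbp5: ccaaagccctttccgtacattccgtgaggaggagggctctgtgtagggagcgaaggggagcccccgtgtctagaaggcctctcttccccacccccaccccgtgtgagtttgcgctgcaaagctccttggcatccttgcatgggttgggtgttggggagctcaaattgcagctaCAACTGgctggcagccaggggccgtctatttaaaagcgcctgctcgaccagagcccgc
It held 1 match to CANNTG and no match to CACGTG. The word GTAAACA, which is bound by forkhead factors and searched on both strands, was in 3.17% of windows over all genes and in none of those of the 10 members, which says only that these letters are not in these windows.

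Igfbp4, a soluble inhibitor of IGF action that the protease PAPP-A cleaves, rose from 3 d. Igfbp4 (ENSMUSG00000017493, chr11:99041244-99054392 on the plus strand, 4416 exon bases) read 29.5, 24.1, 28.6 and 24.2 FPKM at 0 d, 30.5, 65.9, 72.6 and 53.2 at 3 d and 52.8, 54.0, 58.8 and 69.8 at 5 d. Replicate 1 of 3 d was far below the other samples of that day and just above those of 0 d, and the groups did not overlap. The macrophage marker sum, 45.5 to 67.0 FPKM at 0 d, was 184 to 366 at 3 d and 219 to 277 at 5 d. At 3 d Cd68 and Mrc1 lay above all 0 d samples, and Adgre1, Csf1r and C1qa overlapped them. The part of these markers in the rise of Igfbp4 was not tested. The changes were 0.97 ± 0.21 at 3 d (limma adjusted p = 3.87e-04), 1.11 ± 0.21 at 5 d (adjusted p = 7.43e-05), 0.77 ± 0.21 at 7 d and 0.85 ± 0.21 at 14 d. At 21 and 28 d they were 0.57 and 0.53, with adjusted p of 0.0322 and 0.0399, and missed 1.5-fold. At 21 d the call came back, at 0.60 to 0.62, without replicate 3 or 4 of 21 d or replicate 1 or 3 of 0 d, and at 28 d, at 0.62, without replicate 3 of 28 d. The 7 d value was 0.58 and not called without replicate 4 of 7 d, and the step from 1 d to 3 d, 0.63 ± 0.21 (adjusted p = 0.0225), was lost without replicate 1 or 2 of 1 d or replicate 2 or 3 of 3 d (0.48 to 0.60). After median-ratio scaling the calls at 3 d (0.74) and 5 d (0.74) held, and those at 7 d (0.40) and 14 d (0.46) did not reach 1.5-fold.

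Igfbp7 (ENSMUSG00000036256, chr5:77349240-77408041 on the minus strand, 1209 exon bases), known from vessel walls and matrix, followed later. It read 89.3, 81.6, 86.5 and 80.8 FPKM at 0 d, 150.3, 139, 135 and 171 at 5 d and 149.9, 128, 106 and 173 at 7 d. The samples of 5 and 7 d lay wholly above those of 0 d. Those of 14, 21 and 28 d did too, with lowest samples of 103, 96.8 and 91.7 FPKM. The change was 0.80 ± 0.19 at 5 d (limma adjusted p = 7.50e-04) and 0.69 ± 0.19 at 7 d (adjusted p = 0.00305), against 0.00 at 1 d and 0.41 at 3 d. The call at 7 d was lost without replicate 4 of 7 d (0.58), and the gene was called at 3 d without replicate 1 of 3 d (0.64), at 14 d without replicate 1 or 3 of 14 d (0.63 and 0.65) and at 28 d without replicate 3 of 28 d (0.60). After median-ratio scaling it was 0.41 at 5 d and not called at any day. Of its exon bases, 85 lie opposite Polr2b on the other strand, and strand handling is not given in the sources used here. At 5 and 7 d all 5 macrophage markers lay above all 0 d samples (sums of 219 to 277 and 153 to 324 FPKM against 45.5 to 67.0). Of 5 fibroblast markers, Lum and Pi16 lay above on both days and Dpt lay below at 5 d. Of 5 satellite cell and myoblast markers 3 lay above, and of 5 endothelial markers 4 lay below. Their part in the result was not tested.

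Igfbp6 was the member with a fall and no later rise above 0 d. It encodes a secreted protein that prefers IGF-2 over IGF-1. Igfbp6 (ENSMUSG00000023046, chr15:102144362-102149511 on the plus strand, 1112 exon bases) read 168, 127, 109 and 106 FPKM at 0 d, 77.8, 80.0, 83.2 and 102 at 1 d and 30.7, 76.9, 85.6 and 56.4 at 3 d. All samples of 1 and 3 d were below all of 0 d, with replicate 1 of 3 d the lowest. It fell by 1.09 at 3 d (SE 0.27, limma adjusted p = 0.00117), a call that held with each sample left out in turn. Summed endothelial markers (5 of 5) went from 81.5 to 93.1 FPKM at 0 d to 47.4 to 66.4 at 3 d, with 4 of the 5 genes below all 0 d samples. The sum of 5 Schwann cell markers went from 76.3 to 169 FPKM at 0 d to 9.58 to 24.6 at 3 d, with 3 genes below and 2 overlapping. Their part in the result was not tested. At 1 d the change was -0.55 (adjusted p = 0.131), and from 5 d to 28 d it was -0.48, -0.46, -0.21, -0.46 and -0.35, none called. At 7 d the value was -0.62 without replicate 4 and -0.20 without replicate 3 of that day, and at 14 d -0.36 without replicate 2 and -0.025 without replicate 1. At 28 d it was -0.45 without replicate 4 of 28 d and -0.21 without replicate 1 of 0 d. After median-ratio scaling Igfbp6 was called lower at all 7 days, between -0.61 at 14 d and -1.33 at 3 d. Between 3 d and 28 d it rose by 0.75 ± 0.27 (adjusted p = 0.0281), a call lost without replicate 1 of 3 d (0.45), replicate 4 of 3 d (0.73) or replicate 4 of 28 d (0.64).

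Igfbp3, the main carrier of IGFs in serum, moved little beyond the spread of its samples. Igfbp3 (ENSMUSG00000020427, chr11:7206086-7213923 on the minus strand, 3130 exon bases) read 9.19, 8.22, 8.60 and 8.73 FPKM at 0 d, 17.7, 18.4, 12.1 and 8.65 at 3 d and 9.72, 5.11, 7.11 and 7.57 at 5 d. At 3 d replicates 1 and 2 were high while replicate 4 lay within the 0 d range. The change of 0.60 ± 0.24 at 3 d (limma adjusted p = 0.0498) lay at the threshold and was lost when any 1 sample of the 8 other than replicate 4 of 3 d was left out (0.46 to 0.65). The drop from 3 d to 5 d was -0.83 ± 0.24 (adjusted p = 0.0123) and that from 3 d to 28 d -0.78 ± 0.24 (adjusted p = 0.0126), both between overlapping groups. Of all genes 2.05% and 4.54% were called lower in these comparisons. The first was lost without replicate 1 or 2 of 3 d or replicate 2 of 5 d (-0.72 to -0.69), and the second without replicate 1 or 2 of 3 d or replicate 3 of 28 d (-0.66 to -0.64). Without replicate 4 of 7 d, whose 12.8 FPKM stood above the other 3 samples, Igfbp3 was called lower at 7 d (-0.73 against -0.42 with all samples). After median-ratio scaling it was called lower at 5 d (-0.59), 7 d (-0.76) and 21 d (-0.66).

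Levels of several binding proteins varied together among the samples of 1 day. Deviations from the day means on log2(FPKM + 1) had r = 0.899 between Igfbp4 and Igfbp7 and r = 0.867 between Igfbp4 and Igfbp6 over the 32 samples, which share their days' libraries. At 3 d replicate 1, with the lowest Igfbp4, Igfbp5, Igfbp6 and Igfbp7, also had the lowest fibroblast marker sum, 252 FPKM against 343 to 403 in the other 3 samples, and the lowest macrophage (184 FPKM), endothelial (47.4), satellite cell (61.3) and Schwann cell (9.58) sums of its day. At 7 d replicate 3 had the lowest Igfbp3, Igfbp4, Igfbp6 and Igfbp7 and the lowest fibroblast marker sum, 282 FPKM, and replicate 4, with the highest of those 4 genes, had the highest, 547 FPKM. The macrophage sum was likewise lowest in replicate 3 (153 FPKM) and highest in replicate 4 (324 FPKM), as was the Schwann cell sum (6.475 and 32.75 FPKM), while the endothelial and satellite cell sums were lowest in replicate 3 and highest in replicate 2. The part of these cells in the result was not tested.

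The summed FPKM of Igfbp3 to Igfbp7 was 392 ± 37.0 at 0 d (SD, n = 4), 269 ± 39.1 at 1 d, 686 ± 29.7 at 5 d and 567 ± 38.8 at 28 d. After median-ratio scaling it was 478 ± 38.9, 286 ± 20.01, 638 ± 30.9 and 529 ± 23.4 on these days, and the samples of 28 d then overlapped those of 0 d. Igfbp5 made up 36.8% ± 8.36 of that sum at 0 d and 19.6% ± 2.33 at 1 d. It made up 20.4% ± 3.66 at 3 d and 55.5% ± 4.91 at 5 d. Its share was 60.9% ± 5.26 at 7 d, the highest day mean, and 53.3% ± 2.70 at 28 d. Igfbp6 went from 32.6% ± 7.02 at 0 d to 12.8% ± 2.87 at 7 d. Igfbp7 was the largest part at 3 d, at 37.4% ± 1.97. These shares lie within a sample and do not depend on scaling by a single factor per sample. The lowest Igfbp5 share at 5, 7, 14, 21 or 28 d, 49.5%, was above the highest at 0 d, 45.1%, and the highest at 1 or 3 d, 24.2%, was below the lowest at 0 d, 29.3%.

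**Figure D3:**
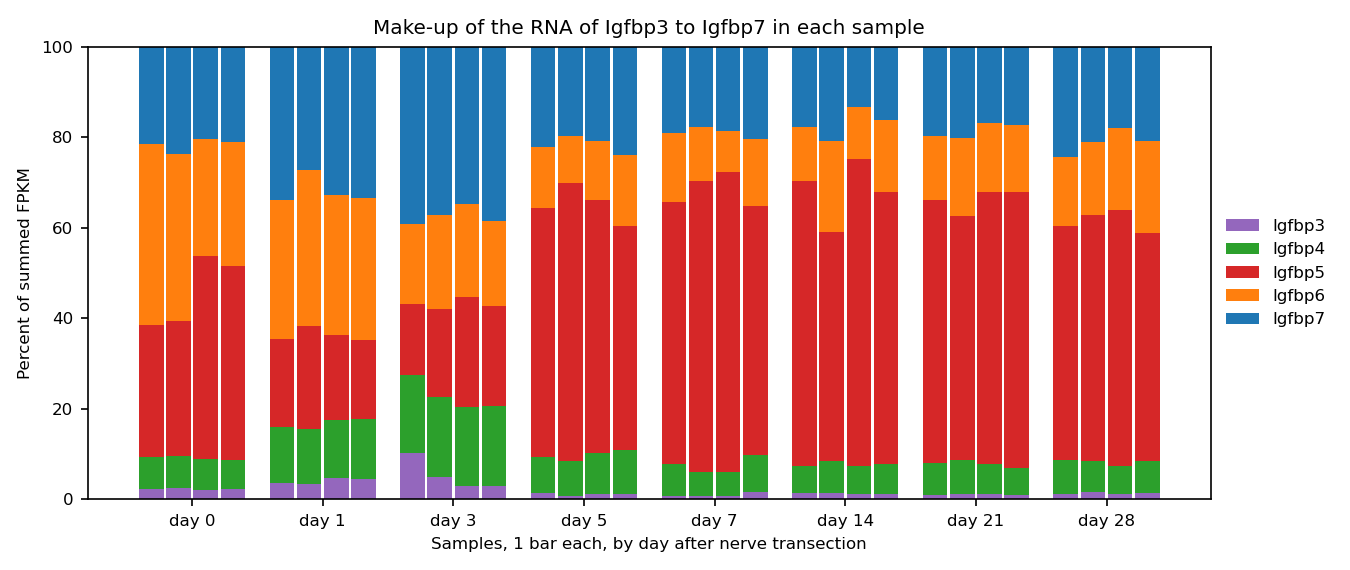
Share of the summed FPKM of Igfbp3, Igfbp4, Igfbp5, Igfbp6 and Igfbp7 (y axis, percent) in each of the 32 samples (1 bar each, x axis grouped by day). The Igfbp5 part is 15.7% to 24.2% of the bars at 1 and 3 d and at least 49.5% of those from 5 d on.

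In order of mean level per exon length at 0 d, Igfbp5 and Igfbp6 overlapped at the top, followed by Igfbp7, Igfbp4, Igf2r, Igfbp3, Igf1, Igf1r, Igf2bp2 and Igf2, whose samples did not overlap their neighbours in the order. At 28 d Igfbp5 led alone, and Igf2r overlapped Igfbp4.

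Igf2bp2 was low and rose at once. Igf2bp2 (ENSMUSG00000033581, chr16:22059009-22163299 on the minus strand, 7402 exon bases) read 0.359, 0.389, 0.407 and 0.349 FPKM at 0 d, 1.06, 0.834, 0.964 and 0.982 at 1 d and 1.23, 2.45, 1.77 and 1.54 at 3 d. No sample of any later day fell to the level of 0 d, and the highest was replicate 2 of 3 d. The mean ratio to 0 d was 2.55 at 1 d, peaked at 4.64 at 3 d and was 2.20 at 28 d. On log2(FPKM + 1), which understates changes at this level, the rise was 0.98 ± 0.10 at 3 d (limma adjusted p = 2.56e-09) and 0.59 ± 0.10 at 5 d (adjusted p = 1.44e-05), both called, and 0.51 at 1 d (adjusted p = 1.89e-04), below 1.5-fold. The 5 d call was lost without replicate 4 of 0 d (0.58) or replicate 1 of 5 d (0.55), and a call at 7 d appeared without replicate 3 of 7 d (0.59). With a pseudocount of 0.1 it was called at all 7 days, with 1.15 at 1 d and 0.65 at 21 d, the smallest. After median-ratio scaling the call at 3 d held (0.92) and that at 5 d did not (0.45). At 1 d 4 of 5 macrophage markers lay above all 0 d samples and 1 overlapped. Of the satellite cell and myoblast markers, Myod1 and Cdh15 lay above and 3 overlapped. Replicate 2 of 3 d also had the highest macrophage (366 FPKM) and satellite cell and myoblast (95.65 FPKM) sums of its day. Their part in the result was not tested.

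Other genes of the IGF axis were read from 4 lists, chosen with earlier results of these data known, so their counts are descriptions. The percents of all genes set beside them include genes with a mean under 1 FPKM. Of 10 extracellular regulators, 8 were tested, and 2 were higher and 0 lower at 1 d, 2 and 1 at 3, 5, 7 and 21 d, 3 and 0 at 14 d, and 2 and 0 at 28 d. Over all genes 6.34% were called higher and 2.49% lower at 1 d, and 11.8% to 15.4% higher and 3.83% to 6.03% lower at the later days, so that about 1 higher gene in a list of 8 is the background from 3 d on. After median-ratio scaling the counts were 2 and 0 at 1 d, 1 and 1 at 3 and 7 d, 2 and 1 at 5, 14 and 28 d, and 1 and 2 at 21 d. Over all genes that scaling called 4.14% higher and 4.68% lower at 1 d, and 6.44% to 9.01% higher and 7.16% to 9.16% lower at the later days. Igfbp2, whose gene lies 5457 bases from Igfbp5 on the other strand (chr1:72824503-72852474), was 0.0709 to 0.387 FPKM at 0 d and 1.06 to 3.86 FPKM at 5 d. It was called higher from 5 d to 28 d, by 1.61 ± 0.30 at 5 d (limma adjusted p = 5.82e-05) and 2.07 at 14 d, while at 1 d, when Igfbp5 fell, it differed by 0.04 (adjusted p = 0.978). Htra1, a protease that can cleave IGF binding proteins, rose by 1.28 at 1 d, 0.69 at 3 d and 1.03 at 5 d. Adamts1, another secreted protease, rose by 0.76 at 1 d and 0.86 at 3 d. After median-ratio scaling the calls of Igfbp2 and Adamts1 held, that of Htra1 at 3 d was lost (0.47), and Htra1 was called lower at 21 d (-0.67).

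Of 10 receptors and adaptors, 8 were tested, with 3 higher and 1 lower at 1 and 3 d, 1 and 2 at 5 d, 2 and 3 at 7 and 21 d, and 3 and 3 at 14 and 28 d. Against the same percents of all genes, the 1 higher gene at 5 d was near the background. After median-ratio scaling lower calls outnumbered higher ones from 3 d on, with 2 higher and 1 lower at 1 d, 1 and 2 at 3 d, 0 and 3 at 5, 7 and 14 d, and 1 and 3 at 21 and 28 d. Over all genes lower calls also outnumbered higher ones after that scaling, with 6.44% to 9.01% higher and 7.16% to 9.16% lower from 3 d on. Grb14, an adaptor that inhibits the insulin receptor, fell from 4.18 to 7.01 FPKM at 0 d to 0.254 to 0.547 at 3 d, a change of -2.12 ± 0.11 (limma adjusted p = 3.91e-15), and was called lower at all 7 days. Irs2, which passes the signal of the receptors on, rose by 1.5 ± 0.15 at 1 d (adjusted p = 8.95e-09) and 0.67 at 3 d, and was called lower from 7 d on, with -0.64 at 28 d. Grb10, a relative of Grb14, was called higher at 3, 14, 21 and 28 d, with 1.43 ± 0.15 at 28 d (adjusted p = 6.17e-09). After median-ratio scaling its calls were those of 21 and 28 d, Irs2 was not called at 3 d (0.47) and was called lower from 5 d on, and Grb14 held at all 7 days.

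Of 6 growth hormone axis genes, all tested, 3 were higher and 0 lower at 1 d, 2 and 1 at 3 d, 2 and 0 at 14 d, 1 and 2 at 21 d, and 1 and 0 at 5, 7 and 28 d. The 1 higher gene of 6 at 5, 7 and 28 d was near the 14.2% to 15.4% of all genes called higher on those days. After median-ratio scaling the counts were 3 and 1 at 1 d, 0 and 2 at 3 d, 1 and 2 at 5 and 7 d, 1 and 1 at 14 d, and 0 and 3 at 21 and 28 d, so that the balance turned to lower calls at 3, 5, 7 and 28 d. The balance over all genes turned to lower calls as well, with 6.7% higher and 7.69% lower at 5 d and 6.58% and 8.11% at 28 d. Cish and Socs2, feedback inhibitors that STAT5 switches on, rose at 1 d by 1.23 ± 0.17 (limma adjusted p = 1.43e-06) and 0.96 ± 0.10 (adjusted p = 2.05e-08). Cish was not called at any other day, and Socs2 was again higher at 14 d (0.66). Stat5a was called higher at 3 d and all later days, by 0.67 to 0.99. After median-ratio scaling the 1 d calls of Cish and Socs2 held, Socs2 at 14 d was 0.40 and not called, and Stat5a was called at 5, 7 and 14 d. Of 2 tested genes among 2 mRNA-binding paralogues of Igf2bp2 and H19, the imprinted non-coding neighbour of Igf2, H19 was higher at 3 d and all later days. It was 69.7 to 89.2 FPKM at 0 d and 647 to 799.5 FPKM at 21 d, a change of 3.16 ± 0.15 (adjusted p = 2.19e-16), and 2.86 after median-ratio scaling. H19 (chr7:142575529-142578143) lies 72622 bases from Igf2, for which no change against 0 d was called.

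**Figure D4:**
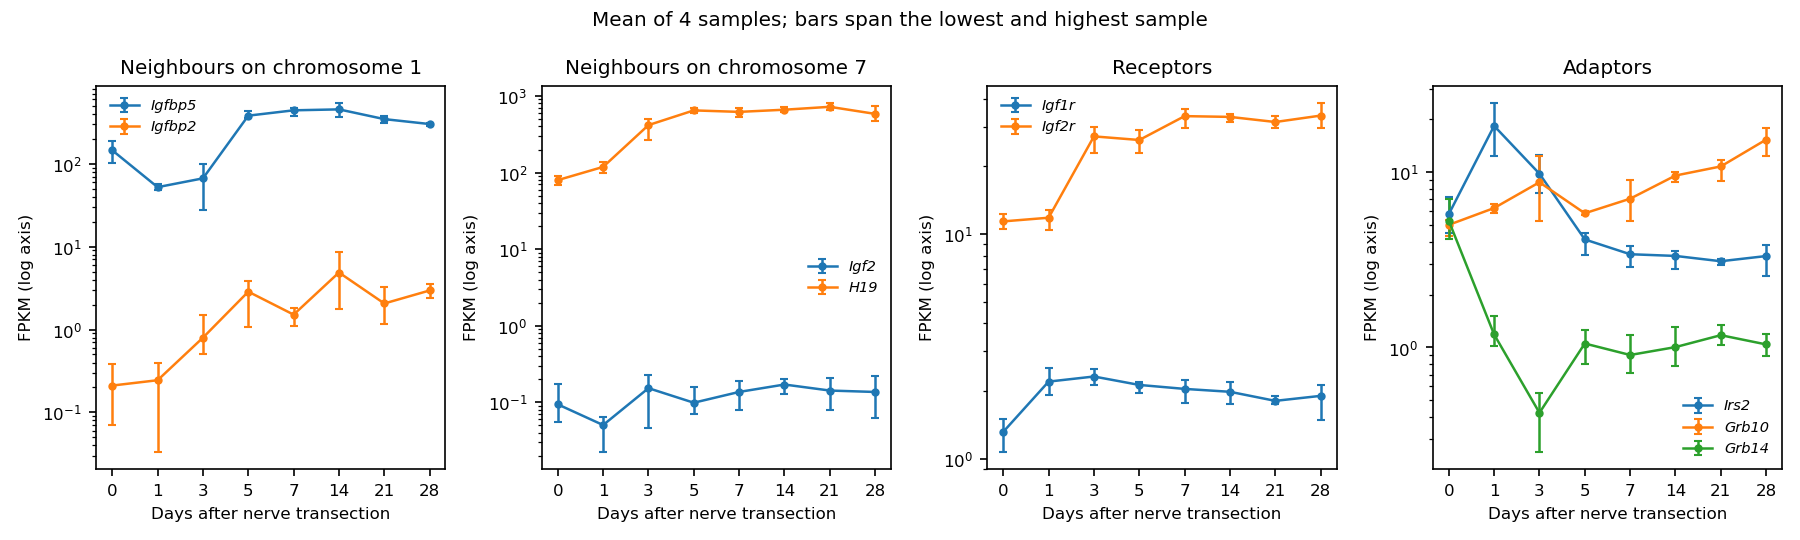
Mean FPKM (y axes, log scale) of 4 samples at each day after nerve transection (x axes) for Igfbp5 and its neighbour Igfbp2, Igf2 and its neighbour H19, the receptors, and 3 adaptors, with bars from the lowest to the highest sample. H19 lies at 269.6 to 799.5 FPKM from 3 d on while Igf2 is at most 0.230 FPKM, and Grb14 is lowest at 3 d.

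The genes whose log2(FPKM + 1) followed each member most closely over the 32 samples, among 3205 genes, were Kremen1 (r = 0.983), Kcnn3 (r = 0.980) and Hhipl1 (r = 0.978) for Igf2r. For Igfbp5 they were Xrcc5 (r = 0.956), Slc5a6 (r = 0.955) and Cacnb1 (r = 0.955). For Igfbp4 they were Pros1 (r = 0.957), Ctsb (r = 0.951) and Grn (r = 0.940), and for Igfbp7 the collagens Col5a2 (r = 0.948) and Col3a1 (r = 0.938) and Efemp2 (r = 0.926). Igf2bp2 was nearest to Hmga1 (r = 0.916), Rasa3 (r = 0.916) and Pabpc1 (r = 0.915), and Igf1 to Aldh1a3 (r = 0.862), Mmp14 (r = 0.855) and Ctsb (r = 0.847). Igf1r was nearest to Gna13 (r = 0.891), Rlim (r = 0.877) and Ube4b (r = 0.875), Igfbp6 to Clec3b (r = 0.894), Mcpt4 (r = 0.866) and Ltbp4 (r = 0.837), Igfbp3 to Galnt15 (r = 0.743), Arhgap26 (r = 0.741) and Tgm2 (r = 0.725), and Igf2 to Sh3rf2 (r = 0.684), F2rl1 (r = 0.672) and Snx7 (r = 0.661). The points share their days and libraries, so these coefficients are descriptions.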

How the data were processed

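RNA from GAS muscle was sequenced in 32 samples, 4 at each of 8 time points. The authors deposited 1 FPKM value per gene and sample. The submitters' processing notes name CASAVA, HISAT2 2.1.0, DESeq2 and GRCm38, and the counter and its strand setting are not given in the sources used here. Symbols, positions and merged exon lengths came from GENCODE mouse release 21, which matched 33356 of 33397 genes. With these lengths, 99.3% to 99.4% of values under 200 fragments came out within 0.05 of a whole fragment.

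Values were tested as log2(FPKM + 1) with limma 3.58.1 in R 4.3.3 (eBayes with a variance trend, all 32 samples) for the 22071 genes that 4 or more samples held at 0.1 FPKM or above, in 14 comparisons, 7 against 0 d and 7 between time points. The columns named C were read as 0 d. A call needed a Benjamini-Hochberg adjusted p under 0.05 over all genes and 1.5-fold. The fit was first tested on simulated data. The members and lists were chosen with earlier results of these data known. All 10 members were named, with up to 3 called genes per list of the axis (largest change against 0 d) and the 3 genes with the highest r per member among genes with a mean of at least 1 FPKM and day means spanning at least 1 (log2). Alternatives covered the pseudocount, filters, TPM, median-ratio and quantile scaling, the variance trend, limma-voom on recovered fragments, the samples in the fit, the fold threshold and each sample left out in turn. Promoter windows came from RefSeq (GRCm38.p6).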

Additional observations from a re-analysis of the deposited data

Results flagged for a closer look

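In 3 of the 80 sets of 4 samples, 1 for each gene and day, a single sample lay far outside the rest, where chance gives about 4 such sets. Igfbp5 in replicate 3 of 7 d was low, at 376.8 FPKM against 456 to 468 in the others, and was still above every 0 d sample. Igf1r in replicate 1 of 5 d was low, at 1.965 FPKM against 2.16 to 2.20. Igf2 in replicate 2 of 5 d was high, at 0.1605 FPKM against 0.0702 to 0.0831, a difference of a few fragments.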

How the results depend on the processing

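The calls of Igf2r at 3 to 28 d and of Igfbp5 at all 7 days against 0 d held under every alternative run.

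Counts of called members moved by over 1.5 times as follows. With a pseudocount of 0.1, 2 were higher at 1 d, and 4 at 21 d, at 28 d and from 1 to 3 d, and 2 were lower from 3 to 5 d and 2 from 3 to 28 d. limma-voom on recovered fragments gave the same 6 numbers. With TPM, 2 were higher at 1 d, 7 at 14 d and 6 at 28 d, and 2 lower from 3 to 28 d. With no fold threshold, 2 were higher at 1 d, 7 at both 14 and 28 d, 5 at 21 d, 4 from 1 to 3 d and 1 from 5 to 7 d, and 2 were lower from 3 to 5 d and 3 from 3 to 28 d. After median-ratio scaling, 3 were higher at 3 and 5 d and 2 at 7 and 14 d, 2 were lower at each of 1, 5, 7 and 21 d and 1 at each of 14 and 28 d, with 1 lower from 1 to 3 d and 2 from 3 to 28 d. After quantile normalization, 3 were higher at 3 d, 2 at 7 d, 2 at 14 d and 1 from 1 to 3 d, and 1 lower at 5 d, 2 at 7 d, 1 at 21 d, 1 from 1 to 3 d and 2 from 3 to 28 d. With only the 2 groups in the fit, 1 was higher from 1 to 3 d and 1 from 3 to 28 d. Smaller moves at 3, 5, 7 and 14 d gave 5, 7, 7 and 5 higher with a pseudocount of 0.1 and 6, 7, 7 and 6 with limma-voom. TPM gave 6 at 3 d, 7 at 5 and 7 d, and 3 at 21 d and from 1 to 3 d, and no fold threshold gave 6 at 3 d, 7 at 5 and 7 d and 3 from 3 to 28 d. Among the added calls were Igf1r and Igf2bp2 at 7 d with a pseudocount of 0.1, TPM and limma-voom. Quantile normalization gave 4 at 5 d without Igf1 and Igf2bp2, the fit of only the 2 groups 4 at 7 d without Igf1, a filter at a mean of 1 FPKM 4 at 3 d and 5 at 5 d, and no filter or no variance trend 4 at 3 d. Leaving out each sample in turn gave 4 to 5 members higher at 3 d as at 14 d, 5 to 6 on day 5, 2 to 6 on day 7, 2 to 3 on day 21, 2 to 5 on day 28, 1 to 4 from 1 to 3 d, 1 to 2 from 3 to 5 d and 1 to 2 from 3 to 28 d, and 0 to 1 lower at 7 d, 0 to 1 from 3 to 5 d and 0 to 2 from 3 to 28 d. The cause was not tested.

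Directions turned only for uncalled changes near 0. After median-ratio scaling these were Igf2r (-0.13) and Igfbp7 (-0.18) at 1 d, Igf2 at 5 d (-0.027) and Igfbp3 at 14 d (-0.33). After quantile normalization they were Igf2r (-0.14) and Igfbp7 (-0.021) at 1 d, Igf2 at 5 d (-0.066), 7 d (-0.019), 21 d (-0.0065) and 28 d (-0.035), and Igfbp3 at 14 d (-0.30). With 1 sample left out they were Igfbp7 at 1 d (range -0.11 to 0.14), Igf2 at 5 d (range -0.020 to 0.040) and Igfbp3 at 14 d (range -0.025 to 0.090).

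Over all genes, 1950 to 4308 were called per day against 0 d, 3621 to 7277 with a pseudocount of 0.1, 3313 to 7610 with TPM, 3626 to 7375 with voom, 6493 to 10518 with no fold threshold, 1946 to 4010 after median-ratio scaling, 1842 to 3876 after quantile normalization, 1940 to 4312 with only the 2 groups and 1819 to 4715 with 1 sample left out. Igf2 had 2 to 22 fragments a sample, where counting error is large. No paired analysis was possible because the columns carry no replicate numbers of the labels.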
